A study of Mus musculus with 8 samples.

Results

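Macrophage marker RNA was followed through 8 RNA-seq libraries of mouse blood stem cell populations, using the 10 genes Csf1r, Mrc1, Cd68, C1qa, C1qb, C1qc, Cd163, Timd4, Cd5l and Ly86. All 10 were found by symbol among the 33504 genes of the deposited table. Macrophages are phagocytes that settle in every organ of the embryo, clear dying cells and take part in blood formation. They depend on the growth factor receptor encoded by Csf1r and secrete the complement starter protein C1q, and those of the fetal liver surround maturing red cells and take up their expelled nuclei. Some of the genes are not exclusive to macrophages: Mrc1 is also transcribed in certain endothelial cells and Cd68 in other myeloid cells.

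The libraries were poly(A)-selected and came from 3 groups, all on the C57BL/6J background: pre-HSC from embryonic day 11.5 (3 libraries), ex-HSC with the stage given as in vitro (3 libraries) and FL-HSC, from embryonic day 14.5 (2 libraries). HSC is the abbreviation of hematopoietic stem cell, with FL read as fetal liver. Embryos came from C57BL/6J wild-type females mated with males that were wild type or carried a Ly6a-GFP transgene, and the labels do not tell which library had it. The ex-HSC libraries were read as coming from the described 4-day culture of reaggregates with OP9 cells, fed with Flt3L, SCF and IL-3. OP9 is a mouse stromal line known to lack functional Csf1, the main ligand of the Csf1r protein. Sort gates and the origin of the replicates (which litters, which cultures) are not in the labels, so a p-value reflects no more than how far these libraries spread, which may be technical. Values are FPKM, fragment counts scaled to transcript length and library size, a scale on which levels of different genes can be compared. Between 11682 and 12757 genes per library had at least 1 FPKM, the sum of FPKM per library lay between 553227 and 745619, and read depth is unknown because the table holds no counts. In ex-HSC replicate 2, 24992 genes were above 0, against 15622 to 18374 in the other 7 libraries, and its median-of-ratios scaling factor was 0.721 against 0.987 to 1.17 in the others. The stem and progenitor receptor gene Kit had 33.2 to 130 FPKM over the 8 libraries, which alone does not settle the cell type. Genes of other cell types were also high: the mast cell gene Cpa3 had 603 to 1264 FPKM in ex-HSC. The endothelial gene Cdh5 had 430 to 489 FPKM in pre-HSC.

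The C1q genes carried most of the signal, and they lie side by side. On the minus strand of chromosome 4 (GRCm38, GENCODE vM21), C1qb spans 136880129 to 136886187, C1qc 136889804 to 136893065 and C1qa 136895917 to 136898803. Cd5l lies on chromosome 3 (87357881 to 87371073, plus strand) and Timd4 on chromosome 11 (46810800 to 46844332, plus strand). These coordinates are of GRCm38, whereas the submitters' processing notes name mm9, so they locate the genes and were not joined to the values. Of the 10 genes, Csf1r was left out of the promoter search and C1qa had no promoter entry. RefSeq promoter windows (250 bases before to 50 after the gene start, GRCm38.p6) were searched for the other 8. They are shown for C1qb and C1qc, whose levels moved together from library to library, and for Cd5l and Timd4, which had their highest level in FL-HSC. Capitals mark GAGGAA, the core of sites bound by the myeloid factor PU.1, and TGCTGA, a core of sites bound by Maf factors, each on either strand.
C1qb promoter, chr4:136886151-136886450, minus strand: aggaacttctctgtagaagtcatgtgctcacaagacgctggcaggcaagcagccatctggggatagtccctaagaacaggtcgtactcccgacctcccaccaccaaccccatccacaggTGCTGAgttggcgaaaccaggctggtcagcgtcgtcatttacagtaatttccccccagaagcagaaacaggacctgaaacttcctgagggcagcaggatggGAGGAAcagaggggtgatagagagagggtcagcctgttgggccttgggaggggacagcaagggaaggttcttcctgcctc
C1qc promoter, chr4:136892865-136893164, minus strand: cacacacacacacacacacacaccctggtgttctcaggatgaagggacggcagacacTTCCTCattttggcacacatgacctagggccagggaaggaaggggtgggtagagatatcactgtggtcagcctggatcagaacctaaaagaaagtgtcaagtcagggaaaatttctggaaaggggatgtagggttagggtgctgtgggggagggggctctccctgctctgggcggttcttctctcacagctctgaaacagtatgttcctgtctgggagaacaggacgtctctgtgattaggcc
Cd5l promoter, chr3:87357631-87357930, plus strand: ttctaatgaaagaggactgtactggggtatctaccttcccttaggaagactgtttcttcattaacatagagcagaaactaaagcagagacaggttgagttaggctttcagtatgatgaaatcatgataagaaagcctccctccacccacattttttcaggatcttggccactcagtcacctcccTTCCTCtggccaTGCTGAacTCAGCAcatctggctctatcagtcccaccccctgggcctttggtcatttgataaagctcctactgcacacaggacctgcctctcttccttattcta
Timd4 promoter, chr11:46810549-46810848, plus strand: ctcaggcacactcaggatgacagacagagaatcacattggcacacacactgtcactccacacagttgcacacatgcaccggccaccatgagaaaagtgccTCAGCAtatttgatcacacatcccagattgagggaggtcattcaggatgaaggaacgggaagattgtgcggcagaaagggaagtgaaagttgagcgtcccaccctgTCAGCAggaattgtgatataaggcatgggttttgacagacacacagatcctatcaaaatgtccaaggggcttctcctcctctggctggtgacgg
GAGGAA was in 5 of the 8 marker promoters searched and in 28.3% of 32851 promoters of this length, and TGCTGA in 3 of 8 and in 19.5%. A match describes letters only. Cd5l held both motifs, with TGCTGA on each strand a short distance apart, C1qb held both, C1qc held GAGGAA only and Timd4 held TGCTGA only.

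Macrophage marker RNA was found in every library, and within pre-HSC and FL-HSC it differed several-fold from replicate to replicate. The summed level of the 10 markers was 613, 207 and 1287 FPKM in pre-HSC replicates 1, 2 and 3, 195, 141 and 131 in ex-HSC replicates 1, 2 and 3, and 424 and 58.3 in FL-HSC replicates 1 and 2. Pre-HSC replicate 3 was thus 6.204-fold above replicate 2 and FL-HSC replicate 1 was 7.27-fold above replicate 2, while the ex-HSC libraries lay within 1.48-fold of each other. FL-HSC replicate 1 stood above the lowest pre-HSC library, so the ranges of these 2 groups overlapped. The sums made up 0.0359% to 0.213% of all FPKM in pre-HSC, 0.0179% to 0.0268% in ex-HSC, with 0.00907% and 0.0569% for FL-HSC. In sorted bulk RNA, fewer macrophages and less marker RNA per cell cannot be told apart.

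**Figure D1:**
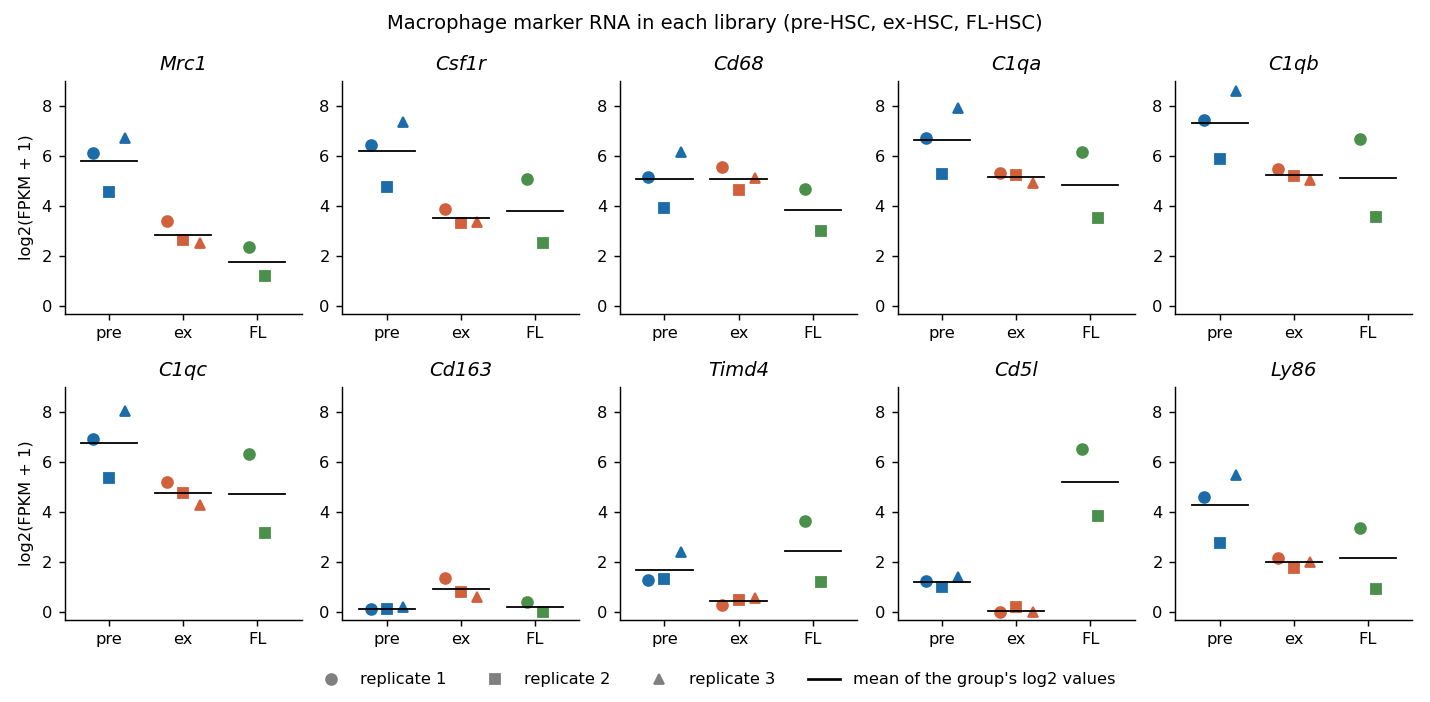
RNA of each of the 10 macrophage markers as log2(FPKM + 1), 1 panel per gene, with 1 symbol per library (3 pre-HSC, 3 ex-HSC, 2 FL-HSC) and a line at the mean of the group's log2 values. In pre-HSC, replicate 3 is highest in all 10 panels, and in FL-HSC replicate 1 is above replicate 2 in all 10.

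Csf1r encodes the receptor for the growth factors of the Csf1 and Il34 genes, on which most macrophages depend for survival. It stood at 85.8, 26.3 and 164 FPKM in the pre-HSC libraries, at 13.9, 8.90 and 9.17 in the ex-HSC libraries and at 33.2 and 4.79 in the FL-HSC libraries. Every ex-HSC library was below every pre-HSC library, while FL-HSC replicate 1 overlapped the pre-HSC range. Csf1r fell between pre-HSC and ex-HSC (8.64-fold lower by means, log2 fold change -2.68 ± 0.68 SE, limma adjusted p = 0.00829) and between pre-HSC and FL-HSC (4.86-fold lower, -2.38 ± 0.76, adjusted p = 0.0268). The FL-HSC call was lost in 5 of the 18 other settings tried. Among these were fits without pre-HSC replicate 1 (-2.26, limma adjusted p = 0.0588), pre-HSC replicate 3 (-1.79, 0.0653) or ex-HSC replicate 2 (-2.38, 0.0592). Without FL-HSC replicate 2 the log2 fold change was -1.10.

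C1qa, C1qb and C1qc encode the chains of C1q, the protein that binds dying cells and immune complexes and starts the classical complement pathway. In pre-HSC replicates 1, 2 and 3, C1qa had 104, 37.5 and 245 FPKM, C1qb had 171, 58.2 and 389, and C1qc had 122, 40.0 and 263. In ex-HSC the values were 39.4, 36.4 and 29.5 for C1qa, 44.2, 36.01 and 31.9 for C1qb and 35.7, 26.7 and 18.5 for C1qc. FL-HSC replicates 1 and 2 had 69.9 and 10.6 FPKM of C1qa, 101 and 10.9 of C1qb and 79.5 and 7.98 of C1qc. The 3 genes ordered the libraries of each group in the same way, with replicate 3 highest and replicate 2 lowest in pre-HSC and replicate 1 highest in ex-HSC and FL-HSC. They also kept nearly fixed proportions: of their summed FPKM, C1qb took 42.9% to 43.4% in the 3 pre-HSC libraries, across which the sum went from 136 to 897 FPKM. In the other 5 libraries the C1qb share was 36.3% to 40.3% and the C1qa share 27.9% to 36.9%, against 26.2% to 27.6% for C1qa in pre-HSC. C1qb fell between pre-HSC and ex-HSC (5.52-fold lower, log2 fold change -2.06 ± 0.75 SE, limma adjusted p = 0.0455). For C1qc (-2.02 ± 0.77, limma adjusted p = 0.0535) and C1qa (-1.48 ± 0.68, adjusted p = 0.104) the same difference did not pass. The C1qb call was lost in 8 of the 18 other settings tried. Among these were fits without any 1 of the pre-HSC replicates 1 and 3 and the ex-HSC replicates 1, 2 and 3 (limma adjusted p from 0.0789 to 0.136). None of the C1q genes passed between pre-HSC and FL-HSC (limma adjusted p from 0.0558 to 0.0789). Without pre-HSC replicate 2 or without FL-HSC replicate 1, all 3 passed in FL-HSC against pre-HSC (log2 fold changes from -3.74 to -2.49, limma adjusted p from 0.0034 to 0.0114).

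Mrc1 encodes the mannose receptor, which takes up sugar-coated proteins. Its FPKM were 68.8, 22.9 and 104 in the pre-HSC libraries, 9.59, 5.27 and 4.68 in the ex-HSC libraries and 4.16 and 1.29 in the FL-HSC libraries. The 3 groups did not overlap and followed each other in that order. Mrc1 fell 10.02-fold in ex-HSC (log2 fold change -2.95 ± 0.50 SE, limma adjusted p = 0.000690) and 23.9-fold in FL-HSC (-4.02 ± 0.56, adjusted p = 0.000226) against pre-HSC, while FL-HSC against ex-HSC did not pass (-1.07 ± 0.56, adjusted p = 0.169). Both calls against pre-HSC held in all 18 other settings tried. The 10 endothelial markers examined beside it also fell in both comparisons, 10 of 10 in each. Of all tested genes, 28.4% fell in ex-HSC and 20.4% in FL-HSC against pre-HSC. The part of the endothelial markers in the Mrc1 difference was not tested. Within pre-HSC, Mrc1 varied 4.55-fold and the summed endothelial markers varied 1.11-fold.

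Ly86 encodes a secreted partner of the receptor of the Cd180 gene on macrophages and B cells. It stood at 23.3, 5.89 and 44.1 FPKM in the pre-HSC libraries, 3.53, 2.45 and 3.06 in the ex-HSC libraries and 9.36 and 0.905 in the FL-HSC libraries. The ex-HSC libraries lay below the pre-HSC libraries, whereas FL-HSC replicate 1 overlapped them. Ly86 fell in ex-HSC (8.11-fold lower, log2 fold change -2.30 ± 0.68 SE, limma adjusted p = 0.0181) and likewise in FL-HSC (4.76-fold lower, -2.14 ± 0.76, adjusted p = 0.0413) against pre-HSC. The ex-HSC call was lost in 5 of the 18 other settings tried and the FL-HSC call in 8. Both were lost without pre-HSC replicate 1, pre-HSC replicate 3 or ex-HSC replicate 2. In these fits the log2 fold changes were -2.19 to -1.70 in ex-HSC (limma adjusted p of 0.0501 to 0.0811). In FL-HSC they were -2.14 to -1.54 (limma adjusted p of 0.0814 to 0.103). The FL-HSC call was also lost without ex-HSC replicate 1 or 3 (limma adjusted p of 0.0575 and 0.0508) and without FL-HSC replicate 2, where the log2 fold change was -0.92 (limma adjusted p = 0.357). Cd180 itself had 7.81, 2.31 and 12.4 FPKM in the pre-HSC libraries, 3.54, 2.55 and 5.54 in the ex-HSC libraries and 3.11 and 1.30 in the FL-HSC libraries, and it passed in none of the comparisons (limma adjusted p from 0.0718 to 0.389).

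Cd68 encodes a lysosomal membrane protein of phagocytes and did not follow most of the others in ex-HSC against pre-HSC. Within pre-HSC and FL-HSC, Cd68 ordered the libraries as C1q did (5.04-fold for pre-HSC replicate 3 over 2, 3.47-fold for FL-HSC replicate 1 over 2). Its FPKM were 34.4, 14.1 and 71.1 in the pre-HSC libraries, 46.5, 23.7 and 33.5 in the ex-HSC libraries and 24.5 and 7.07 in the FL-HSC libraries. All 3 groups overlapped. In ex-HSC against pre-HSC the log2 fold change was 0.02 ± 0.55 SE (limma adjusted p = 0.976). Its sign turned without pre-HSC replicate 2 (-0.56) or ex-HSC replicate 1 (-0.21). FL-HSC against pre-HSC gave -1.24 ± 0.61 and did not pass (limma adjusted p = 0.125). Cd163, the scavenger receptor gene for hemoglobin bound to haptoglobin, was low throughout. Its FPKM were 0.0912, 0.0815 and 0.162 in the pre-HSC libraries, 1.60, 0.772 and 0.540 in the ex-HSC libraries and 0.327 and 0 in the FL-HSC libraries. Cd163 was the member left out by the filter for testing (at least 1 FPKM in at least 2 libraries), so it has no test, and its ex-HSC libraries lay above all others at a level near 1 FPKM.

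Cd5l and Timd4 stood apart, with their highest levels in FL-HSC. Cd5l encodes a secreted protein that promotes macrophage survival and is typical of liver macrophages, and Timd4 encodes a receptor for phosphatidylserine on dying cells, typical of macrophages seeded before birth. Cd5l had 1.37, 1.03 and 1.63 FPKM in pre-HSC, was listed at 0, 0.151 and 0 in ex-HSC, and had 90.7 and 13.6 in FL-HSC. Both FL-HSC libraries were far above all 6 others, although they differed 6.69-fold from each other. Cd5l rose in FL-HSC against pre-HSC (38.8-fold by means, log2 fold change 3.97 ± 0.57 SE, limma adjusted p = 0.000263) and exceeded its ex-HSC level in FL-HSC (5.12 ± 0.57, adjusted p = 0.000116), and these calls held in all 18 other settings tried. The ex-HSC libraries were all below the pre-HSC libraries, with means of 0.0504 and 1.34 FPKM. Each gene's spread was estimated over all 8 libraries, so the FL-HSC libraries also enter the SE of ex-HSC against pre-HSC. Whether Cd5l was called there depended on the pseudocount and on the FL-HSC libraries included. It did not pass with 1 FPKM added (-1.15 ± 0.51, limma adjusted p = 0.0898) and passed with 0.5 (-1.74, adjusted p = 0.0217) or 0.1 (-3.39, adjusted p = 0.00148), and also without FL-HSC replicate 1 (-1.15, adjusted p = 0.000918) or 2 (-1.15, adjusted p = 0.000834). Timd4 had 1.44, 1.55 and 4.39 FPKM in the pre-HSC libraries, 0.236, 0.422 and 0.503 in the ex-HSC libraries and 11.6 and 1.32 in the FL-HSC libraries. The ex-HSC libraries lay below pre-HSC, a difference that did not pass (-1.22 ± 0.52, limma adjusted p = 0.0803) except with a pseudocount of 0.5 (-1.61, adjusted p = 0.0482) or 0.1 (-2.25, adjusted p = 0.0240), with the replicate block (-1.22, adjusted p = 0.0487) or without FL-HSC replicate 1 (-1.22, adjusted p = 0.00689) or 2 (-1.22, adjusted p = 0.00638), or without FL-HSC replicate 1 and pre-HSC replicate 3 (-0.85, adjusted p = 0.00628). FL-HSC replicate 2 lay below all 3 pre-HSC libraries and replicate 1 above them, and Timd4 did not pass against pre-HSC (0.74 ± 0.58, limma adjusted p = 0.325), with a log2 fold change of -0.48 without FL-HSC replicate 1 and 1.97 (adjusted p = 0.00467) without replicate 2. Timd4 exceeded its ex-HSC level in FL-HSC (16.7-fold by means, 1.97 ± 0.58, limma adjusted p = 0.0250), a call lost without FL-HSC replicate 1 (0.75, adjusted p = 0.229), ex-HSC replicate 1 (1.89, 0.0603) or ex-HSC replicate 2 (1.99, 0.0835).

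**Figure D2:**
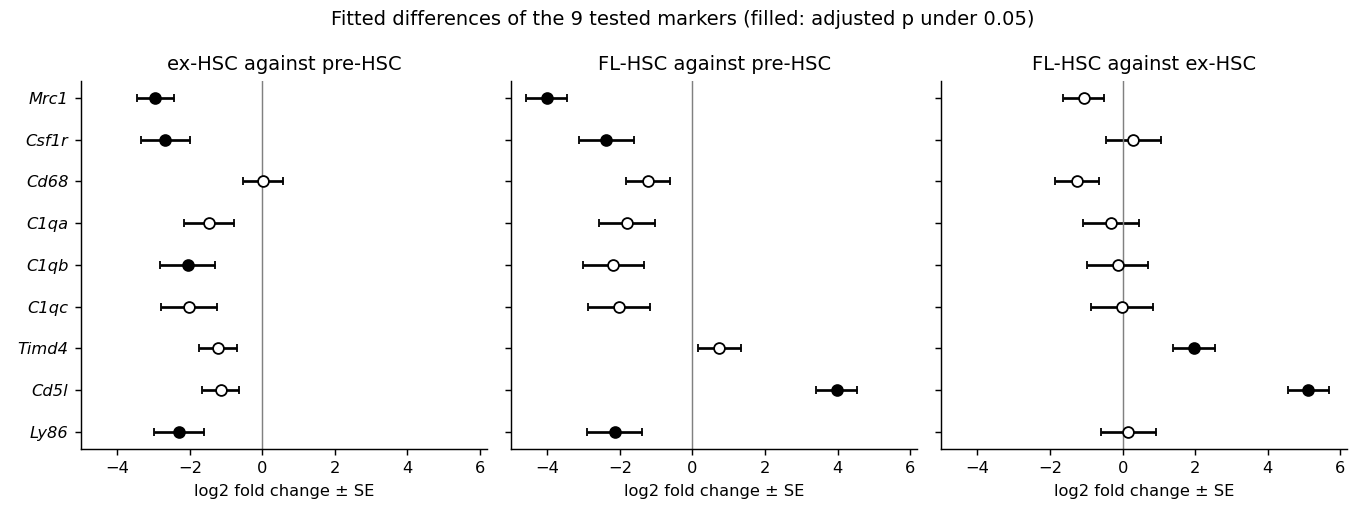
Fitted log2 fold changes ± SE, on the log2(FPKM + 1) scale, of the 9 tested macrophage markers in the 3 comparisons, with filled symbols where the limma adjusted p was under 0.05. On this scale Mrc1 lies farthest to the left against pre-HSC in both populations, and Cd5l farthest to the right in both FL-HSC comparisons.

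Counted over the 9 tested markers, 4 fell and 0 rose in ex-HSC against pre-HSC, where 28.4% of all 13720 tested genes fell and 15.7% rose, 44.1% in all. Csf1r, Mrc1, C1qb and Ly86 were the 4, 7 of the 9 had an unadjusted limma p under 0.05, and the median log2 fold change was -2.02, against -0.16 over all genes. The ex-HSC libraries lay wholly below pre-HSC for 7 of the 9 markers (35.5% of all genes) and wholly above for 0 (19.9%). In FL-HSC against pre-HSC, 3 markers fell (Csf1r, Mrc1 and Ly86) and Cd5l rose, beside 20.4% of all genes that fell and 22.9% that rose, 43.3% in all, with a marker median of -2.03 against 0.13. The groups did not overlap for Mrc1, lower in FL-HSC as were 28.7% of genes, and for Cd5l, higher as were 39.4%. Both comparisons share the pre-HSC libraries. In FL-HSC against ex-HSC, Cd5l and Timd4 were higher and 0 were lower by limma, beside 24.1% of genes higher and 9.15% lower, 33.3% in all, 2 of the 9 had an unadjusted p under 0.05, and the marker median was -0.01 against 0.27. Without overlap, Cd5l and Timd4 were higher (40.6% of genes) and Mrc1 lower (15.8%). The background leaned on scaling: the higher share of called genes went from 35.6% to 48.0% (median-of-ratios) and 55.6% (quantile) in ex-HSC against pre-HSC, from 52.9% to 44.7% and 57.7% in FL-HSC against pre-HSC, and from 72.5% to 49.3% and 56.0% in FL-HSC against ex-HSC. Those scalings moved the median of all genes by 0.13 and 0.26, by -0.16 and 0.01, and by -0.29 and -0.22. The counts that follow, with libraries left out, stand without the share of all genes called lower in the same setting. They therefore do not tell a change of the markers from a change of all genes. Without pre-HSC replicate 1 or 3 or ex-HSC replicate 2, 2 markers were called lower in ex-HSC, and without either FL-HSC library 8 were. For FL-HSC against pre-HSC, 1 marker was called lower without pre-HSC replicate 1 or 3, ex-HSC replicate 2 or FL-HSC replicate 2, and 7 without pre-HSC replicate 2 or FL-HSC replicate 1.

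Libraries of the same group were then set side by side, since the markers differed more within pre-HSC and FL-HSC than most genes did. Between pre-HSC replicates 3 and 2, 8 of the 9 markers with a mean of at least 1 FPKM were at least 2-fold higher in replicate 3, against 6.02% of all tested genes at that mean. Their median ratio was 6.25, from 1.58 for Cd5l to 7.49 for Ly86, and the median over all genes was 1.01. Replicate 1 was in between: 5 of 9 markers were at least 2-fold higher in replicate 3 than in replicate 1 (2.91% of all genes), and 7 of 9 were at least 2-fold higher in replicate 1 than in replicate 2 (4.49%). Between FL-HSC replicates 1 and 2, 9 of 9 markers were at least 2-fold higher in replicate 1, against 3.70% of all genes, with a median ratio of 6.93 and a range from 3.22 for Mrc1 to 10.3 for Ly86. Among ex-HSC libraries, 0 of 7 markers were at least 2-fold higher in replicate 1 than in replicate 2, against 9.99% of all genes, and the median ratio was 1.44, beside 1.43 over all genes. Against ex-HSC replicate 3, 1 of 7 was at least 2-fold higher in replicate 1 (3.22% of genes) and 0 of 7 in replicate 2 (1.27%). In every pair the library with the higher marker sum was set first, so the direction follows from the marker values themselves. In the other direction, 247 of 12503 genes were at least 2-fold lower in pre-HSC replicate 3 than in replicate 2. In FL-HSC, 622 of 11713 genes were at least 2-fold lower in replicate 1. Of the markers, 0 were in either pair. These are ratios of single libraries, with no test.

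**Figure D3:**
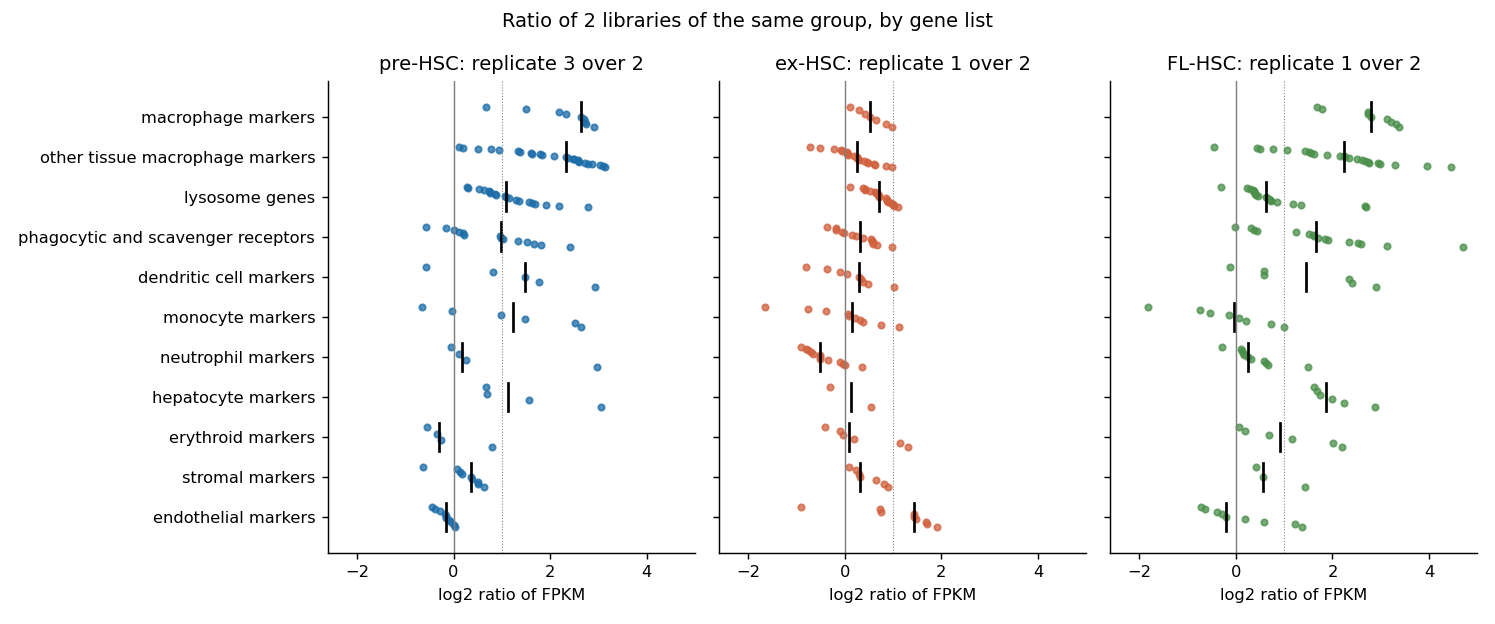
Log2 ratio of FPKM between 2 libraries of the same group for each gene with a mean of at least 1 FPKM, by gene list, with a bar at the median, a solid line at equal levels and a dotted line at 2-fold. The macrophage markers centre on ratios of 6.25 in pre-HSC and 6.93 in FL-HSC, and on 1.44 in ex-HSC.

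Most other macrophage genes were also higher in pre-HSC replicate 3 than in replicate 2 and in FL-HSC replicate 1 than in replicate 2. Of 28 further tissue macrophage markers found, 25 averaged 1 FPKM or more in pre-HSC. Of these, 20 were at least 2-fold higher in replicate 3 than in replicate 2 (6.02% of all genes), with a median ratio of 4.99. In FL-HSC 20 of 24 were at least 2-fold higher in replicate 1 (3.70% of all genes), with a median ratio of 4.75. In ex-HSC 0 of 21 were at least 2-fold higher in replicate 1 than in replicate 2 (9.99% of all genes). Emr1 (now Adgre1), the gene of the surface receptor most used to identify mouse macrophages, had 32.0, 10.4 and 54.0 FPKM in the pre-HSC libraries, 11.7, 8.39 and 7.08 in the ex-HSC libraries and 20.0 and 3.27 in the FL-HSC libraries. The antibody receptor gene Fcgr1 had 18.3, 5.83 and 42.6 FPKM in the pre-HSC libraries, 3.22, 5.26 and 3.39 in the ex-HSC libraries and 7.64 and 2.06 in the FL-HSC libraries. Mertk, a receptor gene for the clearance of dying cells, had 4.22, 1.49 and 5.31 FPKM, then 0.750, 0.830 and 0.903, and 2.55 and 0.334 in the same order. Cx3cr1, a chemokine receptor gene of early macrophages, had 28.5, 7.79 and 47.1 FPKM in the pre-HSC libraries, 6.05, 3.34 and 3.19 in the ex-HSC libraries and 4.21 and 0.941 in the FL-HSC libraries. Each of these genes was highest in pre-HSC replicate 3 and, within FL-HSC, in replicate 1. In ex-HSC they had no common order: replicate 1 was highest for Emr1 and Cx3cr1 and lowest for Fcgr1 and Mertk. Lyz2, a lysozyme gene shared with granulocytes, ranged less, with 82.6, 50.7 and 155 FPKM in the pre-HSC libraries, 65.9, 94.1 and 68.5 in the ex-HSC libraries and 121 and 70.5 in the FL-HSC libraries. Vsig4, a complement receptor gene of mature liver macrophages, was at or near 0 everywhere, with 0.453 FPKM in pre-HSC replicate 3, 0.253 in ex-HSC replicate 2 and 0.613 in FL-HSC replicate 1, and was listed at 0 in the other 5 libraries. Clec4f, another of the 28 further markers, had 16.9 FPKM in FL-HSC replicate 1 and 0.770 in replicate 2. It had at most 0.289 FPKM in pre-HSC and ex-HSC, and the filter left it untested. Over the 8 libraries, the genes outside the markers whose log2 level was most like the mean of the C1q genes were Emr1 (Pearson's r = 0.996), AF251705 (0.992), the lysosomal protease gene Lgmn (0.984), the microglial receptor gene Trem2 (0.984) and Mpeg1 (0.983), a pore protein gene of macrophages. Those most like Csf1r were Itgb5 (0.985), Ctsb (0.984), Pqlc2 (0.983), Mertk (0.981) and Hfe (0.978). These r describe 8 libraries in 3 groups that share those libraries' composition, and carry no test. Among the markers, r with the C1q mean was 0.979 for Ly86, 0.972 for Csf1r, 0.865 for Mrc1, 0.754 for Cd68, 0.529 for Timd4 and 0.01 for Cd5l.

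Markers of other cell types differed between the same libraries to unequal degrees. The 8 hepatocyte genes summed to 36.2, 31.4 and 99.3 FPKM in pre-HSC replicates 1, 2 and 3, to 27.4, 19.5 and 22.0 in ex-HSC and to 67.8 and 17.4 in FL-HSC, where 6 of 6 genes with a mean of at least 1 FPKM were at least 2-fold higher in replicate 1. Afp, the fetal liver protein gene, had 1.86, 2.61 and 21.6 FPKM in pre-HSC and 11.1 and 2.36 in FL-HSC. Alb, the albumin gene, had 0.0169, 1.08 and 0.0455 FPKM in pre-HSC, where replicate 2 was the highest, and 10.8 and 2.70 in FL-HSC. The 12 dendritic cell genes summed to 105, 101 and 247 FPKM in pre-HSC, to 437, 328 and 524 in ex-HSC and to 142 and 80.9 in FL-HSC. Bst2 made up most of the pre-HSC sums, with 79.5, 76.4 and 213 FPKM, while Zbtb46 ran the other way with 13.9, 15.9 and 10.8. The 10 monocyte genes summed to 289, 189.9 and 329 FPKM in pre-HSC, to 469.7, 451 and 568 in ex-HSC and to 147 and 107 in FL-HSC. Fn1 made up much of the pre-HSC sums, with 160, 140 and 137 FPKM, while F13a1 had 76.5, 20.4 and 117. Of 6 monocyte genes with a mean of at least 1 FPKM in pre-HSC, 4 were higher in replicate 3 than in replicate 2. Over all genes at that mean, 6444 of 12503 were. The median ratio of the monocyte genes was 2.33. The FL-HSC monocyte difference lay mainly in Plac8 (109 and 65.7 FPKM). There 4 of 8 genes were higher in replicate 1 (5925 of 11713 over all genes), with a median ratio of 0.975. The 6 erythroid genes summed to 52.8, 81.2 and 69.8 FPKM in pre-HSC, where replicate 2 was the highest, to 73.7, 85.3 and 71.0 in ex-HSC and to 243 and 136 in FL-HSC, where 3 of 6 were at least 2-fold higher in replicate 1. The 9 stromal genes summed to 548, 289 and 364 FPKM in pre-HSC, to 31.6, 22.4 and 16.7 in ex-HSC and to 9.42 and 6.66 in FL-HSC. The 10 endothelial genes summed to 2385, 2643 and 2402 FPKM in pre-HSC, to 94.4, 42.4 and 90.9 in ex-HSC and to 204 and 218 in FL-HSC. In the same order, the 14 neutrophil genes summed to 31.7, 42.0 and 47.9, to 702, 1021 and 869, and to 627 and 519.7. The 10 mast cell genes summed to 30.8, 31.4 and 37.2, to 4809, 2222 and 2361, and to 89.4 and 79.5. In ex-HSC, 9 of 10 mast cell and 6 of 9 endothelial genes were at least 2-fold higher in replicate 1 than in replicate 2, against 9.99% of all genes. The part of other cells in the marker values was not tested.

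Each marker was also set against the C1q genes of the same library. Cd5l amounted to 36.2 and 46.1 FPKM per 100 FPKM of summed C1qa, C1qb and C1qc in FL-HSC, against 0.181 to 0.757 in pre-HSC and at most 0.152 in ex-HSC. Timd4 amounted to 4.64 and 4.48 in FL-HSC, although its own level differed 8.80-fold between those libraries, against 0.362 to 1.14 in pre-HSC and 0.198 to 0.629 in ex-HSC. On the same scale Csf1r was 18.3 to 21.6 in pre-HSC, 8.98 to 11.7 in ex-HSC, with 13.3 and 16.3 for FL-HSC, and Mrc1 was 11.6 to 17.3, 5.32 to 8.04, and 1.66 and 4.39. Ly86 was 4.34 to 5.86, 2.47 to 3.83, and 3.08 and 3.74. Pre-HSC was the highest group for these 3 ratios, with no overlap. Cd68 was 7.93 to 10.4 in pre-HSC, 23.9 to 41.9 in ex-HSC, with 9.79 and 24.0 for FL-HSC, so the ex-HSC libraries lay above pre-HSC but overlapped FL-HSC. These ratios are a description and were not tested.

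**Figure D4:**
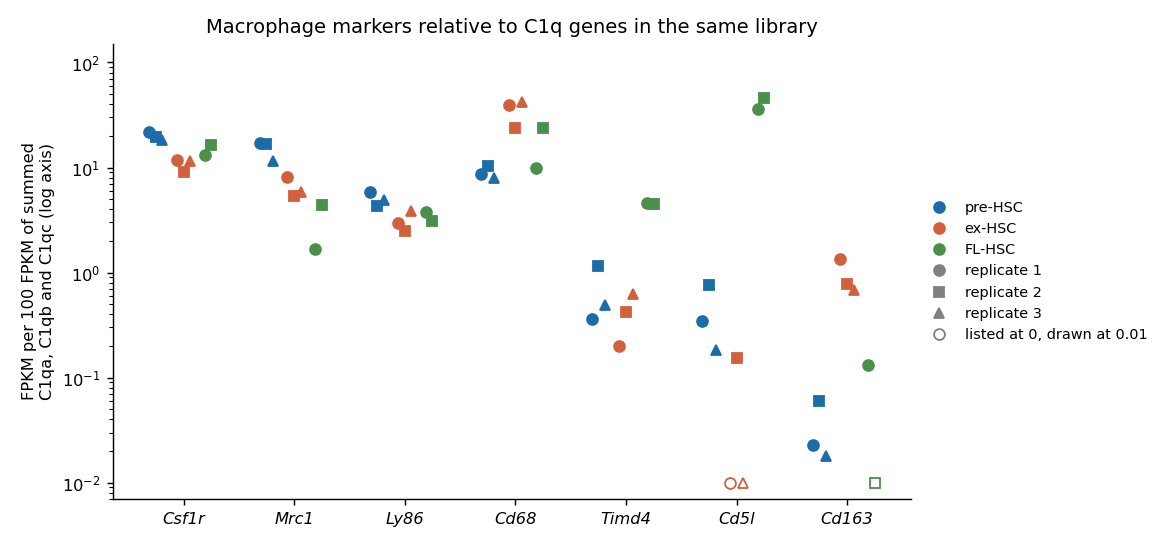
Each marker's FPKM per 100 FPKM of summed C1qa, C1qb and C1qc in the same library, on a log axis, with colours for the groups and symbols for the replicates. Cd5l lies at 36.2 and 46.1 in FL-HSC and below 1 in pre-HSC and ex-HSC, and Cd68 lies at 23.9 to 41.9 in ex-HSC against 7.93 to 10.4 in pre-HSC.

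Genes around the Csf1r pathway did not fall as a body with Csf1r. Csf1, the ligand gene, had 8.18, 8.32 and 7.11 FPKM in the pre-HSC libraries, 21.5, 11.9 and 22.9 in the ex-HSC libraries and 2.52 and 1.68 in the FL-HSC libraries. Csf1 rose there against pre-HSC in ex-HSC (log2 fold change 1.11 ± 0.26 SE, limma adjusted p = 0.00506) and fell in FL-HSC (-1.53 ± 0.29, adjusted p = 0.00160). Il34, the other ligand gene, had at most 0.633 FPKM, and was listed at 0 in 5 libraries. Of 12 tested ligand and signalling genes, 8 rose and 0 fell in ex-HSC (median log2 fold change 0.95), among them the adaptor gene Tyrobp and the phospholipase gene Plcg2, and 5 rose and 2 fell in FL-HSC against pre-HSC (median 0.30). Among all tested genes, 15.7% rose and 28.4% fell in ex-HSC, and 22.9% rose and 20.4% fell in FL-HSC, against pre-HSC. Other myeloid cells also use the ligand and signalling genes. In ex-HSC, 13 of 13 neutrophil markers and 10 of 10 mast cell markers rose, beside the 15.7% of all tested genes. The part of such cells in the rise of the signalling genes was not tested. Of 12 transcription factor genes of macrophages, 1 rose and 6 fell in ex-HSC and 1 rose and 4 fell in FL-HSC against pre-HSC (medians -0.70 and -0.47). Maf, for example, had 26.7, 12.7 and 37.0 FPKM in the pre-HSC libraries, 3.06, 1.89 and 1.66 in the ex-HSC libraries and 4.79 and 1.15 in the FL-HSC libraries (log2 fold changes -2.95 ± 0.42 and -2.79 ± 0.47, limma adjusted p = 0.000200 and 0.000804). Spi1, which encodes PU.1, rose in ex-HSC (56.3, 35.1 and 83.3 FPKM in pre-HSC against 111, 82.1 and 111, 0.86 ± 0.28, limma adjusted p = 0.0273).

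Further lists of macrophage genes were mixed. Over all tested genes, 15.7% rose and 28.4% fell in ex-HSC against pre-HSC, and 22.9% rose and 20.4% fell in FL-HSC against pre-HSC. In FL-HSC against ex-HSC, 24.1% of all tested genes were higher and 9.15% lower. Of 25 other tissue macrophage markers tested, 2 rose and 11 fell in ex-HSC (median log2 fold change -1.25), 1 rose and 10 fell in FL-HSC against pre-HSC (median -1.41), and FL-HSC set against ex-HSC had 2 higher and 6 lower (median 0.08). Folr2, a folate receptor gene of tissue macrophages, had 12.6, 5.16 and 42.4 FPKM in pre-HSC and 0.188 to 0.616 in ex-HSC (-3.46 ± 0.64 SE, limma adjusted p = 0.00124). The galectin gene Lgals3, which mast cells and macrophages share, had 7.33 to 9.37 FPKM in pre-HSC and 116 to 178 in ex-HSC (3.89 ± 0.42, limma adjusted p = 2.35e-05). Slc40a1, the iron exporter gene, exceeded its ex-HSC level in FL-HSC, at 39.4 and 14.7 against 1.67 to 1.91 FPKM (3.16 ± 0.36, limma adjusted p = 0.000146). Of 16 phagocytic and scavenger receptor genes tested, 1 rose and 10 fell in each comparison against pre-HSC (medians -1.30 in ex-HSC and -1.80 in FL-HSC). Stab1, Stab2 and Lyve1, which endothelial cells also transcribe, were among those that fell in both. Marco, a scavenger receptor gene, was the one that rose in FL-HSC, from 0.0564 to 0.630 FPKM in pre-HSC to 48.4 and 8.36 (3.99 ± 0.54, limma adjusted p = 0.000173), and like Cd5l it was higher in FL-HSC replicate 1. In ex-HSC the one that rose was Havcr2, a relative of Timd4, from at most 0.796 FPKM in pre-HSC to 17.9, 11.2 and 9.84 (3.15 ± 0.26, limma adjusted p = 2.84e-06).

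The C1q partner genes stood near 0. C1ra and C1s, the genes of the proteases that C1q activates, had at most 0.797 and 0.364 FPKM in any library and were not tested. Of 11 complement genes tested, 3 rose and 4 fell in ex-HSC and 2 rose and 6 fell in FL-HSC against pre-HSC (median log2 fold changes -0.47 and -1.66). The counts in this paragraph stand beside all tested genes, of which 15.7% rose and 28.4% fell in ex-HSC. In FL-HSC, 22.9% of all tested genes rose and 20.4% fell. C3ar1, a receptor gene for a complement fragment, had 19.0, 5.21 and 31.7 FPKM in pre-HSC and 0.969 and 0.0885 in FL-HSC (-3.45 ± 0.58 SE, limma adjusted p = 0.000797). The lysosomal genes were mixed as well: of 20 tested, 3 rose and 4 fell in ex-HSC and 1 rose and 6 fell in FL-HSC against pre-HSC (medians -0.36 and -0.77). Lgmn fell in both (-1.76 ± 0.63 and -2.23 ± 0.70, limma adjusted p = 0.0421 and 0.0252), and Gpnmb, a lysosomal membrane protein gene, rose in ex-HSC from 0.652 to 2.24 FPKM to 30.1 to 46.6 (4.16 ± 0.30, adjusted p = 1.00e-06). Of 12 tested relatives of the markers, such as Flt3 and Flt1 for Csf1r and Mrc2 for Mrc1, 3 rose and 6 fell in ex-HSC and 2 rose and 6 fell in FL-HSC against pre-HSC. Mrc2, a collagen receptor gene of stromal cells, fell in both like Mrc1, from 3.36 to 7.51 FPKM in pre-HSC to 0.403 to 0.814 in ex-HSC, with 0.189 and 0.359 for FL-HSC. Of 9 stromal markers, 7 fell and 1 rose in ex-HSC, and 8 fell in FL-HSC against pre-HSC.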

How the data were processed

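The authors deposited 1 table of FPKM per gene and library, from which 27 rows named by dates were left out. The tools listed in the submitters' processing notes are DESeq, edgeR, featureCounts and Cufflinks, with mm9 as the build, and versions and roles are not given in the sources used here. Whole reads could not be recovered from low FPKM, so no count model was run. Values were transformed to log2(FPKM + 1), a scale that understates changes of low genes. The 13720 genes that reached 1 FPKM in 2 or more libraries were fitted in limma 3.58.1 (R 4.3.3) with an intensity trend. The fit had 1 mean per group over all 8 libraries, and 3 comparisons were taken. All groups shared 1 estimate of each gene's spread, so libraries outside a comparison also affect its p-values. The limma p-values were adjusted by Benjamini-Hochberg over all tested genes, and rose and fell are used at an adjusted p under 0.05. The script was tested on simulated data. The text names the markers, Csf1, Il34, Cd180 and 6 defining markers, up to 4 called genes per list and comparison by size of change, and the 5 genes most like C1q and Csf1r. Spi1, Kit, Bst2, C1ra, C1s and Clec4f lie outside that rule and were chosen, like the promoter motifs, after their values were seen. Alternatives were other pseudocounts, filters, scalings and variance models, the replicate block and leaving out libraries. The markers and the 15 other lists were chosen with earlier results of these data known.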

Additional observations from a re-analysis of the deposited data

How the results depend on the processing

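Mrc1 against pre-HSC (log2 fold change -3.57 to -2.50 in ex-HSC and -4.64 to -3.44 in FL-HSC) and Cd5l in both FL-HSC comparisons (2.64 to 5.30 and 3.80 to 8.02) kept their calls in all 18 other settings; Csf1r in ex-HSC lost its call only with no filter (adjusted p = 0.0533). The choice to leave out pre-HSC replicate 3 and FL-HSC replicate 1 together was made after seeing the data.

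Counts of markers called lower in ex-HSC against pre-HSC (4) were 6 with a pseudocount of 0.5 or 0.1 (Timd4 and Cd5l gained), 1 with no filter, 2 with quantile normalization, 2 to 8 with 1 library left out, and 7 with both high libraries (pre-HSC replicate 3 and FL-HSC replicate 1) left out. Called higher (0), 1 was with no filter and 1 with median-of-ratios scaling; in the latter Cd163 passed the filter. All genes called higher (2154) were 3630 with median-of-ratios scaling and 4280 with quantile normalization. In FL-HSC against pre-HSC, markers called lower (3) were 1 with no filter, 1 to 7 with 1 library left out and 7 without both high libraries, and markers called higher (1) were 1 to 2 with 1 library left out. All genes called higher (3147) were 1600 without both high libraries, and 1917 to 4080 with 1 library left out. In FL-HSC against ex-HSC, markers called higher (2) were 1 with no filter, with the filter of 5 FPKM, with either scaling and without both high libraries, and 1 to 2 with 1 library left out; called lower (0), 1 was with median-of-ratios scaling, 5 without both high libraries, and 0 to 1 with 1 library left out. All genes called lower (1256) were 2537 with median-of-ratios scaling and 2225 with quantile normalization, and called higher (3308) 1921 without both high libraries and 1873 to 3304 with 1 library left out. Most of these marker counts stand without the share of all genes called in the same setting. They cannot be read as particular to the markers. The causes were not tested.

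Some uncalled differences turned sign. Csf1r and Ly86 in FL-HSC against ex-HSC became -0.026 and -0.093 with median-of-ratios scaling, -0.057 and -0.042 with quantile normalization, and -0.99 and -1.07 without both high libraries, where Timd4 against pre-HSC was -0.11. With 1 library left out, Cd68 in ex-HSC against pre-HSC ranged from -0.56 to 0.57, Timd4 in FL-HSC against pre-HSC from -0.48 to 1.97, and in FL-HSC against ex-HSC Csf1r ranged from -0.99 to 1.58, C1qa from -1.63 to 0.98, C1qb from -1.68 to 1.42, C1qc from -1.59 to 1.57 and Ly86 from -1.07 to 1.38. Summed without the C1q genes, the ex-HSC mean was 56.2 FPKM in place of 156.

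Whether the replicate numbers pair the libraries is unknown. Deviations from group means of same-numbered libraries correlated at -0.114 to 0.144, and those of differently numbered libraries at -0.229 to 0.229. With so few libraries per group, deviations from a mean depend on each other, so these values cannot decide it. With the replicate block, 7 markers were called lower in ex-HSC and 5 in FL-HSC against pre-HSC. The share of all genes called lower with the block is not given here, so these counts cannot be read as particular to the markers. C1qb (0.14) and C1qc (0.19) turned sign with the block in FL-HSC against ex-HSC.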
